A study of Mus musculus with 20 samples.

Results

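Metallothioneins and zinc transporters were followed in pancreatic islets of mice lacking the mitofusins Mfn1 and Mfn2, the proteins that fuse the outer membranes of mitochondria. The 9 genes were picked by name from the table of raw gene counts, after its Ensembl identifiers were matched to mouse symbols, and all 9 were found among its 28632 genes. They are the metallothioneins Mt1 and Mt2, the transcription factor Mtf1, the exporters Slc30a1, Slc30a5 and Slc30a7, and the importers Slc39a6, Slc39a7 and Slc39a14. Each of the 9 averaged over 100 normalized counts across the 20 libraries, as did 12274 genes in all.

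Bulk RNA sequencing was run on whole islets of 12-week-old mice of both sexes, in 4 genotypes. Islets were freed with collagenase and then kept in islet medium at body temperature for 24 hours before RNA extraction. Ctrl (n = 6, 3 females) is labelled wild type, and the study describes its controls as littermates carrying either the Cre or the floxed alleles alone. β-Mfn1KO (n = 4, 3 females) is labelled Mfn1-/-, β-Mfn2KO (n = 5, 2 females) Mfn2-/- and β-Mfn1/2DKO (n = 5, 2 females) Mfn1/2-/-. In all 3 knockouts the floxed alleles are removed by Cre expressed from the Ins1 locus, which acts in β-cells, so the α-, δ-, endothelial and exocrine cells of the islet preparation keep both genes. Nothing in the labels says whether a library came from 1 mouse or from several, and p-values measure the spread between these libraries.

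Zinc inside cells is held by a small set of proteins. Metallothioneins are short cysteine-rich proteins that bind zinc and copper, and their transcription rises when Mtf1 senses free zinc and binds metal response elements in their promoters. Transporters of the SLC30 family (ZnT) move zinc out of the cytosol, across the plasma membrane or into organelles, while those of the SLC39 family (ZIP) move it into the cytosol. β-cells are among the richest cells in zinc because insulin is stored with it in secretory granules, which Slc30a8 (ZnT8) loads.

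Mt1, Mt2 and Slc30a1 are known targets of Mtf1, and the stretches before their transcription starts are shown for that reason. The sequences are the 250 bases before each start in RefSeq on GRCm38.p6, in the direction of transcription, with every match to the core of the metal response element in capitals. The core was searched as TGCACNC and TGCGCNC on both strands, and a match on the other strand appears as its reverse complement. The regions are chr8:94178839-94179088 (plus strand) for Mt1, chr8:94172368-94172617 (plus strand) for Mt2 and chr1:191906531-191906780 (plus strand) for Slc30a1.
Mt1: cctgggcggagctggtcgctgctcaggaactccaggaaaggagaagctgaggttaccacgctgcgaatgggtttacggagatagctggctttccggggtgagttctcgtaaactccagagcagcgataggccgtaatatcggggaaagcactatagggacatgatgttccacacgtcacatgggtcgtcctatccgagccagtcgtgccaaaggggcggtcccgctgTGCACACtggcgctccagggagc
Mt2: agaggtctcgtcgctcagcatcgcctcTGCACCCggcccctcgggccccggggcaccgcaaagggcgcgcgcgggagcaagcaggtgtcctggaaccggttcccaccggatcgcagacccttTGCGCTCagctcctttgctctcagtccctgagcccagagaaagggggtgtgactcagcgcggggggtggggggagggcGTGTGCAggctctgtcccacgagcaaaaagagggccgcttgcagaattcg
Slc30a1: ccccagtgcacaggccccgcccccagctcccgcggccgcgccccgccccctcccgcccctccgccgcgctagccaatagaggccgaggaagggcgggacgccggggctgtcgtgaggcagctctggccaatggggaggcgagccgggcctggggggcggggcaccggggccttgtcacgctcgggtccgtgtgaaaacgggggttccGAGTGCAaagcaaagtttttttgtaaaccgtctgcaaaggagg
Mt2 held 3 matches, and Mt1, Slc30a1 and Slc30a5 held 1 each. Of all 32851 promoter windows of this length, 21.4% held at least 1 match and 1.3% held at least 3. Mtf1, Slc30a7 and Slc39a7 held none, which says only that these letters do not occur in these windows. The other 2 genes, Slc39a6 and Slc39a14, had no entry.

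The annotated start of both metallothioneins lies upstream of a TATA box in GENCODE M21, the annotation used here. In the first annotated transcript of Mt1 the letters TATAAA begin at base 129 and 4 further core matches precede them, and in that of Mt2 they begin at base 90 after 3 matches. The match nearest to the TATA box is shown for each, as transcript bases 95 to 124 for Mt1 and 55 to 84 for Mt2.
Mt1: tgcaaacccttTGCGCCCggactcgtccaa
Mt2: ggcggagctttTGCGCTCgacccaatactc
A match is a description of the letters and not a measured binding site.

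Depth, given here as total counts in mega (M), differed with genotype. Ctrl libraries held 12.4 to 20.3 M counts, β-Mfn1KO libraries 15.7 to 16.7 M, β-Mfn2KO libraries 15.1 to 59.5 M and β-Mfn1/2DKO libraries 65.5 to 122.9 M. Only replicates 4 and 5 of β-Mfn2KO exceeded 40 M among the single knockouts, so depth and double deletion cannot be told apart except through these 2 libraries. Mfn1 counts were lower in both genotypes labelled as lacking it, at 621 to 770 in β-Mfn1KO and 687 to 1062 in β-Mfn1/2DKO against 1518 to 1807 in Ctrl. Mfn2 counts were 1474 to 1688 in β-Mfn2KO and 2022 to 2131 in β-Mfn1/2DKO, against 3089 to 4373 in Ctrl. β-cell markers were abundant in every library, and the summed count of 10 such markers was 2663004 to 3618039 in β-Mfn1/2DKO against 6034205 to 9657202 in Ctrl, with all 10 lower. Acinar markers, which come from exocrine tissue carried over with islets, were far higher in replicates 4 and 5 of β-Mfn1/2DKO, where the summed count of 20 genes was 838746 and 2201118, than in its other 3 libraries (22912 to 38753). Replicate 4 of β-Mfn2KO was also rich in them, at 353341. Macrophage markers stood apart in 2 libraries, Ctrl replicate 6 and β-Mfn2KO replicate 5, where the summed count of 6 genes was 22959 and 31713 against 2345 to 6430 in the other 18. These 2 libraries held the most Mt1 of their genotypes, and results are given with and without them.

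Normalized counts below are counts scaled by edgeR's TMM factors to one common library size. Differences were tested in 1 edgeR quasi-likelihood fit of all 20 libraries and all 28632 genes, and a gene passed the test at a Benjamini-Hochberg adjusted p under 0.05. Fold changes are given on the log2 scale with their standard errors.

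Between β-Mfn1/2DKO and Ctrl islets, 6 of the 9 genes passed the test. The 9 genes were chosen with earlier results of these data known. Their share passing is therefore a description and not a test of the set against all genes. Mt1 and Slc30a1 were higher, and Mtf1, Slc30a5, Slc30a7 and Slc39a7 were lower. Of all genes tested, 16.5% passed in this comparison, 9.59% as higher and 6.86% as lower, and among the 12274 genes averaging 100 normalized counts or more 33.6% passed. The median change of the 9 genes was -0.06 on the log2 scale, and that of all genes tested was 0.06. With a fold change over 1.5 required as well, Mt1 alone remained of the 9, where 5.21% of all genes did. In bulk islets fewer cells of a type and less RNA per cell cannot be told apart. The study reports that pancreatic β-cell mass did not differ significantly among these genotypes, measured in younger mice. The share of β-cells in these islet preparations was not measured.

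Per kilobase of its first annotated transcript, Mt1 (ENSMUSG00000031765, chr8:94179082-94180327, 3 exons) was the most abundant of the 9 genes in Ctrl. Its mean there was 11399 ± 6275 normalized counts per kilobase (SD, n = 6), followed by Slc39a7 at 7335 ± 1068 and Mt2 at 6598 ± 4303, and these 3 lay within one another's spread. Slc30a8, which is not among the 9, was at 13551 ± 1241 in Ctrl and above the mean of Mt1 in both single knockouts as well, while in β-Mfn1/2DKO Mt1 was at 21697 ± 3545 and Slc30a8 at 10417 ± 1370. Of the 9 genes Slc30a5 came next in Ctrl at 1488 ± 143, outside the spread of Slc39a7 and of the next gene. Slc39a6 (616 ± 80.1) and Slc39a14 (562 ± 39.3) did not differ beyond their spread. Slc30a7 (302 ± 48.9), Mtf1 (286 ± 18.6) and Slc30a1 (227 ± 31.8) closed the order, with Slc30a7 and Mtf1 within each other's spread.

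In Ctrl Mt1 varied widely, with a coefficient of variation of 55.0%, against 11.9% in β-Mfn1KO. Its normalized count in Ctrl ran from 2268 through a median of 5461 to 12428. In β-Mfn1KO it was 4014, 4427, 5327 and 4701, and in β-Mfn2KO it was 3346, 4523, 7742, 9304 and 11779. In β-Mfn1/2DKO it was 9221, 12258, 11016, 12600 and 14465. All 5 β-Mfn1/2DKO libraries lay above 5 of the 6 Ctrl libraries and above every β-Mfn1KO library, but Ctrl replicate 6 and 2 β-Mfn2KO libraries lay among them. The mean was 1.91-fold higher in β-Mfn1/2DKO than in Ctrl (log2 0.93 ± 0.30, edgeR adjusted p = 0.0376).

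Mt2 (ENSMUSG00000031762, chr8:94172664-94173568, 3 exons), the neighbour of Mt1 on the chromosome, followed it library by library. Its normalized count ran from 1024 through a median of 2704 to 7306 in Ctrl. It was 1901, 2255, 2975 and 2348 in β-Mfn1KO and 1537, 2220, 4221, 4825 and 7150 in β-Mfn2KO. In β-Mfn1/2DKO it was 4843, 7415, 6321, 6592 and 7024, with Ctrl replicate 6 again among these values. The fitted difference from Ctrl was of the same size as for Mt1 (0.94 ± 0.36), but it did not pass the test (edgeR adjusted p = 0.0771). The ratio of Mt1 to Mt2 counts stayed between 1.65 and 2.29 in all 20 libraries, and the pair took 0.00765% to 0.0526% of a library's counts. No stretch of 75 bases is shared by their annotated transcripts.

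**Figure D1:**
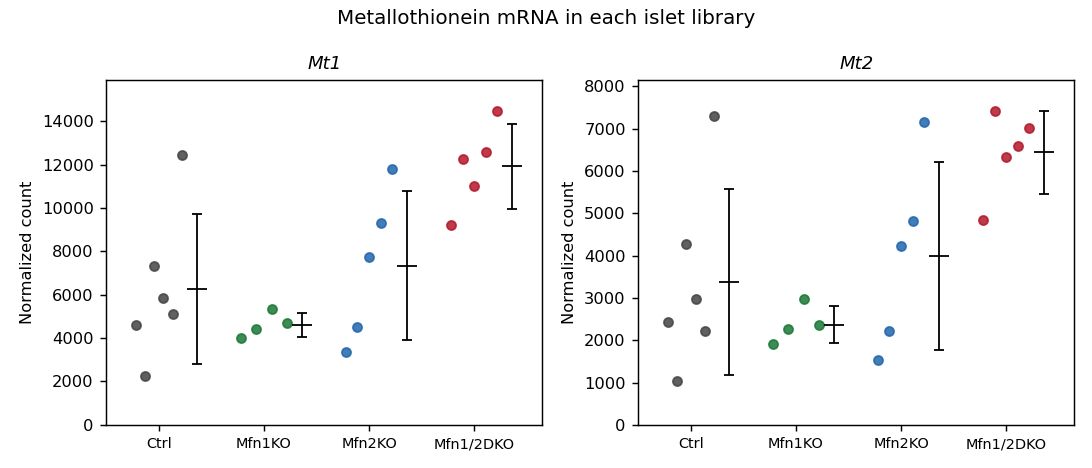
Normalized count (vertical axis) of Mt1 and Mt2 in each of the 20 islet libraries, grouped by genotype, with 1 point a library and the mean ± SD beside each group. The 5 Mfn1/2DKO libraries lie between 9221 and 14465 for Mt1, and 1 Ctrl library at 12428 and 2 Mfn2KO libraries at 9304 and 11779 reach into that range.

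Metallothionein counts were also high in the deep β-Mfn2KO libraries. Its replicates 4 and 5 held 9304 and 11779 normalized counts of Mt1, against 3346 to 7742 in its 3 shallower libraries, and 4825 and 7150 of Mt2 against 1537 to 4221. Both deep libraries were male, as was the shallower replicate 3 (7742 of Mt1), while replicates 1 and 2 were female (3346 and 4523). The part of sex in this split was not tested. Among libraries over 40 M counts alone, the difference between β-Mfn1/2DKO and β-Mfn2KO was 0.22 for Mt1 (edgeR adjusted p = 0.489) and 0.15 for Mt2 (edgeR adjusted p = 0.672). With depth over 40 M as a term in the fit, the difference between β-Mfn1/2DKO and Ctrl was -0.09 for Mt1 and -0.23 for Mt2. When the counts of every library were instead drawn down to the smallest total, Mt1 still passed (0.86, edgeR adjusted p = 0.0314). The depth term rests on these 2 β-Mfn2KO libraries, 1 rich in acinar and 1 in macrophage markers.

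The metallothionein calls turned on single libraries. Ctrl replicate 6 and β-Mfn2KO replicate 5 held 18202 and 26334 normalized counts of Lyz2, a lysozyme of macrophages, against 502 to 4250 in the other 18. Without these 2 libraries the difference between β-Mfn1/2DKO and Ctrl was 1.25 ± 0.25 for Mt1 (edgeR adjusted p = 9.3e-04) and 1.32 ± 0.28 for Mt2 (edgeR adjusted p = 0.00198), and 7 of the 9 genes passed, as did 18% of all genes in that fit. Both also passed against β-Mfn2KO then, at 0.93 ± 0.26 and 1.0 ± 0.30 (edgeR adjusted p = 0.0197 and 0.0294), where 6 of 9 genes and 13.4% of all genes did. Without replicates 4 and 5 of β-Mfn1/2DKO, by contrast, the call on Mt1 was lost (0.81, adjusted p = 0.148), as it was with an acinar score as covariate (0.88, adjusted p = 0.0784). It was also lost without any 1 of Ctrl replicates 1, 2, 4 and 5 or β-Mfn1/2DKO replicates 2, 4 and 5, with adjusted p up to 0.0827. The part of macrophage and acinar RNA in these values was not tested.

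**Figure D2:**
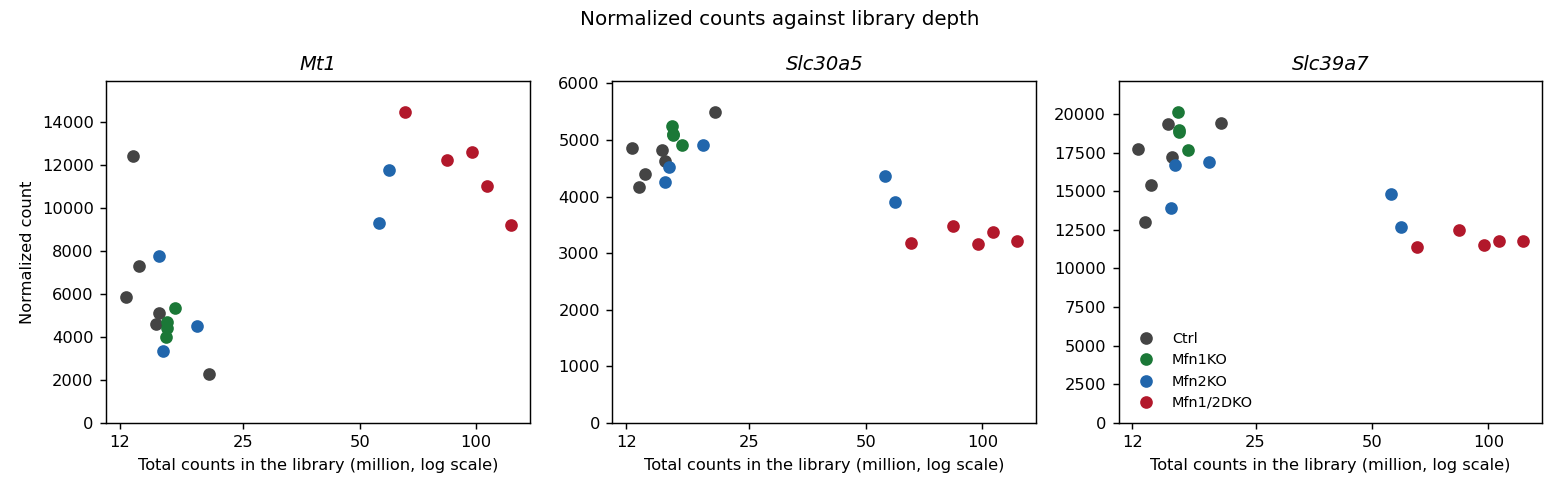
Normalized count (vertical axis) of Mt1, Slc30a5 and Slc39a7 against the total count of each library in M (horizontal axis, log scale), with 1 point a library coloured by genotype. The 2 deep Mfn2KO libraries hold 9304 and 11779 counts of Mt1, near the Mfn1/2DKO libraries, and 4358 and 3908 counts of Slc30a5, above all of them.

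Mtf1 (ENSMUSG00000028890, chr4:124802104-124849800, 11 exons) encodes the zinc-sensing activator of both metallothioneins. In β-Mfn1/2DKO its normalized count was 1960, 1932, 1982, 1930 and 1992, a range that lay just below that of Ctrl, where the lowest, median and highest were 1999, 2224 and 2325. It was 1973 to 2409 in β-Mfn2KO and 2049 to 2238 in β-Mfn1KO. The difference from Ctrl was small, at -0.16 ± 0.05 (edgeR adjusted p = 0.0438), and the call was lost in 12 of the 20 fits that left out 1 library, each of the 5 β-Mfn1/2DKO libraries among them. Under total-count scaling the difference was -0.02 (adjusted p = 0.849). Mtf1 shares 8.09% of its exon bases with 1110065P20Rik on the other strand, a gene with 83.5% as many counts, and no strand setting was given in the sources used here, so its value is uncertain.

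Slc30a1 (ENSMUSG00000037434, chr1:191906767-191913247, 2 exons), also called ZnT1, exports zinc across the plasma membrane and is itself switched on by Mtf1. Its normalized count ran from 918 through 1236 to 1370 in Ctrl and was 1061, 1232, 1175 and 1247 in β-Mfn1KO. It was 1416, 1438, 1459, 1513 and 1433 in β-Mfn2KO and 1559, 1506, 1654, 1468 and 1356 in β-Mfn1/2DKO. Every β-Mfn2KO library lay above every Ctrl library, an arrangement found for 0.416% of all genes in that comparison, and 4 of the 5 β-Mfn1/2DKO libraries did. β-Mfn1/2DKO rose 1.27-fold over Ctrl (0.34 ± 0.08, edgeR adjusted p = 0.00294).

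In β-Mfn2KO against Ctrl the change of Slc30a1 was 0.29 ± 0.08 (95% interval 0.14 to 0.44), with an unadjusted p of 0.00128 in edgeR but an adjusted p of 0.80 over all genes. β-Mfn1/2DKO and β-Mfn2KO differed in Slc30a1 by 0.05 ± 0.08, with an interval from -0.10 to 0.21. Unlike the metallothioneins, Slc30a1 was at the same level in the deep β-Mfn2KO libraries (1433 and 1513) as in the 3 shallower ones (1416 to 1459). With depth over 40 M as a term, its difference between β-Mfn1/2DKO and Ctrl was 0.31, not passing the test (edgeR adjusted p = 0.32), and in counts drawn down to the smallest total it was 0.30 (adjusted p = 0.0967).

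Slc30a5 (ENSMUSG00000021629, chr13:100802648-100833427, 16 exons), or ZnT5, loads zinc into the early secretory pathway. Its normalized count was 3220, 3483, 3366, 3155 and 3180 in β-Mfn1/2DKO. The lowest, median and highest were 4175, 4724 and 5493 in Ctrl, and the other values were 5251, 5111, 4905 and 5087 in β-Mfn1KO and 4517, 4912, 4251, 4358 and 3908 in β-Mfn2KO. Every β-Mfn1/2DKO library was therefore below the other 15, as was the case for 2.35% of all genes. The change from Ctrl was -0.53 ± 0.06 (0.693-fold, edgeR adjusted p = 3.4e-06).

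Slc30a7 (ENSMUSG00000054414, chr3:115938973-116007406, 11 exons), or ZnT7, is a Golgi zinc transporter. Its normalized count was 1853, 1987, 2016, 1956 and 2150 in β-Mfn1/2DKO, 2070 to 3245 with a median of 2762 in Ctrl, 2392 to 3144 in β-Mfn1KO and 2304 to 2875 in β-Mfn2KO. One β-Mfn1/2DKO library overlapped the lowest Ctrl library, and both single knockouts lay wholly above. The change from Ctrl was -0.45 ± 0.09 (0.731-fold, edgeR adjusted p = 0.00131).

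Slc39a7 (ENSMUSG00000024327, chr17:34028269-34031682, 7 exons), or ZIP7, releases zinc from the endoplasmic reticulum and Golgi into the cytosol. Its normalized count was 11741, 12484, 11744, 11493 and 11358 in β-Mfn1/2DKO. The lowest, median and highest in Ctrl were 12991, 17475 and 19406, and it was 20118, 18989, 17683 and 18830 in β-Mfn1KO and 16672, 16905, 13885, 14840 and 12705 in β-Mfn2KO. As for Slc30a5, all 5 β-Mfn1/2DKO libraries were below the other 15. The change was -0.53 ± 0.09 (0.691-fold, edgeR adjusted p = 1.9e-04). Slc39a7 shares 71.6% of its 75-base stretches with the annotated readthrough transcript Gm20427, which held 3.28% as many counts, so part of its reads could have been assigned to either.

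With depth over 40 M as a term, the differences between β-Mfn1/2DKO and Ctrl kept their direction but did not pass the test, at -0.39 for Slc30a5 (edgeR adjusted p = 0.0603), -0.28 for Slc30a7 (adjusted p = 0.468) and -0.33 for Slc39a7 (adjusted p = 0.323). Without replicates 4 and 5 of β-Mfn1/2DKO the 3 genes still passed, at -0.47, -0.46 and -0.48, as did Slc30a1 at 0.43.

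Slc39a6 and Slc39a14 gave no call in any of the 6 comparisons. Slc39a6 (ENSMUSG00000024270, 10 exons), or ZIP6, a plasma membrane importer, averaged 2288 ± 88.7 normalized counts in β-Mfn1/2DKO (SD, n = 5) and 2391 ± 311 in Ctrl (SD, n = 6). The change was -0.06 with an interval from -0.20 to 0.07. Slc39a14 (ENSMUSG00000022094, chr14:70303469-70351425, 10 exons), or ZIP14, an importer of zinc and also of iron and manganese, averaged 1130 ± 36.8 and 1180 ± 82.5, and its interval ran from -0.16 to 0.03. Changes of 1.5-fold lay outside both intervals, and both differences turned positive when libraries were scaled by their total counts.

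**Figure D3:**
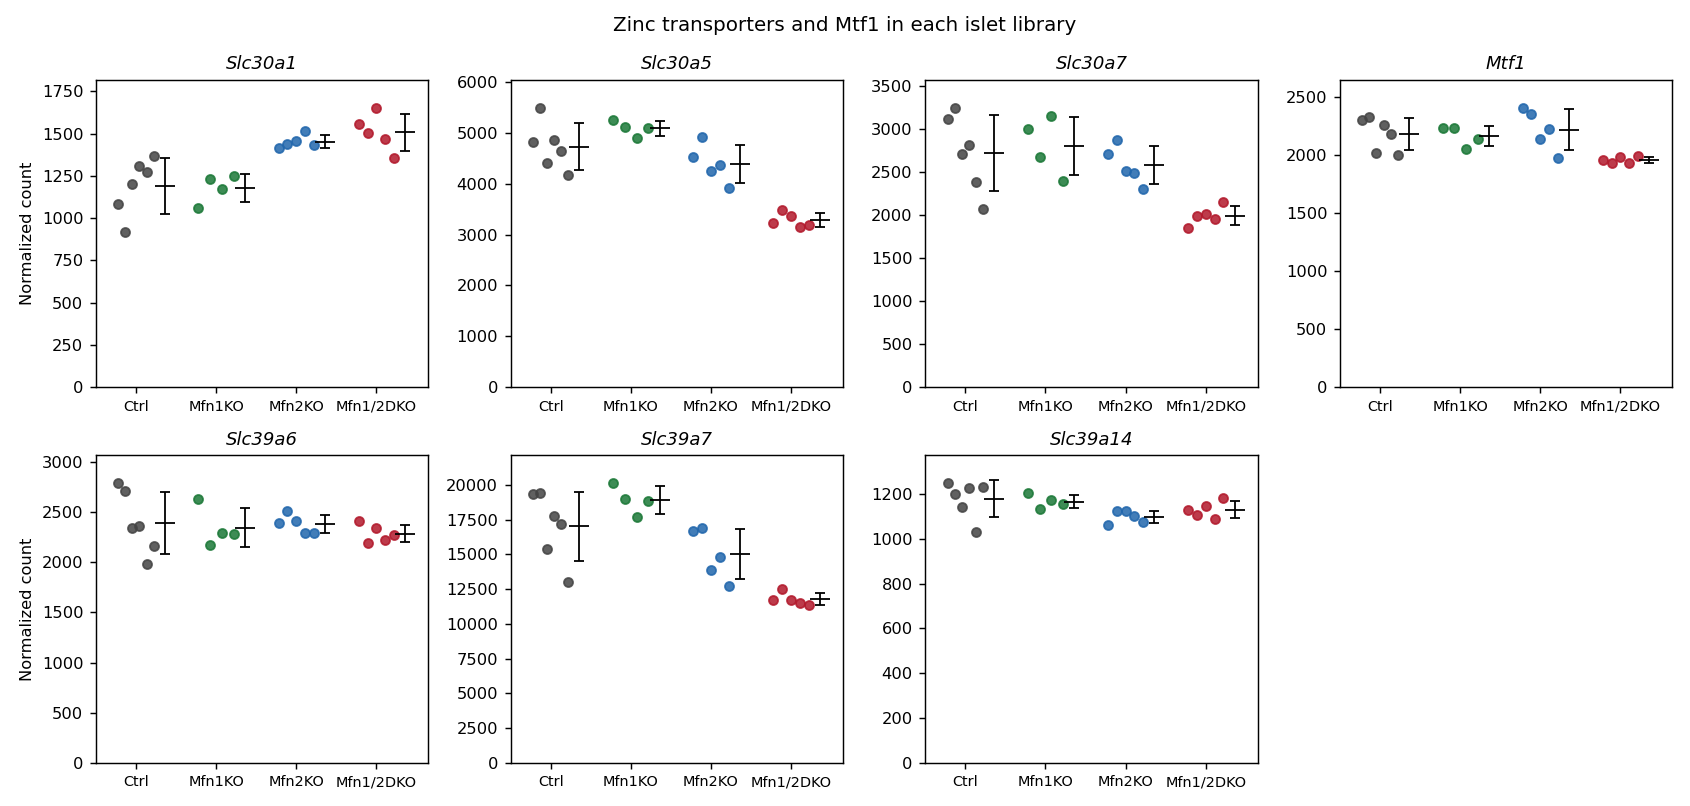
Normalized count (vertical axes, each from 0) of the 6 transporters and Mtf1 in each of the 20 libraries, grouped by genotype, with 1 point a library and the mean ± SD beside each group. Slc30a5 and Slc39a7 are lower in all 5 Mfn1/2DKO libraries than in the other 15, and Slc30a1 is higher in all 5 Mfn2KO libraries than in the 6 Ctrl libraries.

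Neither single knockout moved any of the 9 genes past the test. In β-Mfn1KO against Ctrl, 0 of 9 passed by edgeR and 0 by DESeq2, and 0.0279% of all genes passed. None of the 9 had an unadjusted p under 0.05, while 7.44% of all genes did. Mt1 and Mt2 were at -0.44 ± 0.33 and -0.50 ± 0.39, and the other 7 genes lay between -0.03 and 0.15. Without Ctrl replicate 6 both metallothioneins were at -0.12. In β-Mfn2KO against Ctrl, 0 of 9 passed by either tool, and 0.0559% of all genes passed. An unadjusted p under 0.05 was found for 2 of the 9, Slc30a1 and Slc39a14, and for 4.22% of all genes. Slc39a14 was at -0.10 ± 0.05 there and Slc39a7 at -0.18 ± 0.09.

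Between β-Mfn1/2DKO and β-Mfn2KO, which differ by the deletion of Mfn1, 4 of the 9 genes passed, all as lower. These were Slc30a5 (-0.42 ± 0.07), Slc30a7 (-0.37 ± 0.10), Slc39a7 (-0.35 ± 0.09) and Mtf1 (-0.18 ± 0.05). Of all genes 13% passed, 7.09% as higher and 5.9% as lower, and 26.6% of those averaging 100 normalized counts or more did. The call on Mtf1 was lost in 7 of the 20 fits that left out 1 library, those without β-Mfn2KO replicates 1, 2 or 4 or β-Mfn1/2DKO replicates 1 to 4 (adjusted p 0.0597 to 0.0997). Mt1 was 0.70 ± 0.32 and Mt2 0.68 ± 0.37 higher without passing. Among libraries over 40 M counts, 5 against 2, Slc30a5 alone of the 4 still passed (-0.28, edgeR adjusted p = 0.0385). Total-count scaling left 2 of the 4, Slc30a5 and Slc39a7.

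Between β-Mfn1/2DKO and β-Mfn1KO, which differ by the deletion of Mfn2, 6 of 9 passed. Mt2 (2.72-fold, 1.44 ± 0.41), Mt1 (2.58-fold, 1.37 ± 0.35) and Slc30a1 (0.36 ± 0.09) were higher, and Slc39a7 (-0.68 ± 0.10), Slc30a5 (-0.63 ± 0.07) and Slc30a7 (-0.49 ± 0.10) were lower. The background was 17.4% of all genes, 9.67% as higher and 7.69% as lower, and 35.1% of those averaging 100 normalized counts or more. Every β-Mfn1/2DKO library lay outside the range of the 4 β-Mfn1KO libraries for each of these 6 genes and for Mtf1, an arrangement found for 18.2% of all genes. The call on Mt2 was lost without β-Mfn1KO replicate 1 (1.35, edgeR adjusted p = 0.0557). All β-Mfn1/2DKO libraries in this comparison were over 40 M counts and all β-Mfn1KO libraries under it.

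The interaction asks whether the loss of Mfn1 changed a gene by a different amount in islets without Mfn2 than in islets with it. It passed the test for 5.92% of all genes (2.88% as higher, 3.03% as lower) and for 12.8% of those averaging 100 normalized counts or more. Of the 9 genes it passed for Slc30a5 (-0.52 ± 0.09, edgeR adjusted p = 0.00144) and Slc39a7 (-0.50 ± 0.13, edgeR adjusted p = 0.0245). Loss of Mfn1 thus went with 0.42 lower Slc30a5 on the β-Mfn2KO background and with Slc30a5 at 0.11 ± 0.07 on the Mfn2-positive one, which did not pass. For Mt1 the interaction was 1.13 ± 0.46 and for Mt2 1.19 ± 0.54, neither passing (edgeR adjusted p = 0.171 and 0.236). Slc30a1 gave 0.07 ± 0.12 and Slc30a7 -0.41 ± 0.14 (edgeR adjusted p = 0.0839). With depth over 40 M as a term the interaction for Slc39a7 was -0.38 (adjusted p = 0.199), and without Mfn1KO replicate 1 or Mfn2KO replicate 1 or 2 it missed the threshold too (adjusted p 0.0527 to 0.0589).

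**Figure D4:**
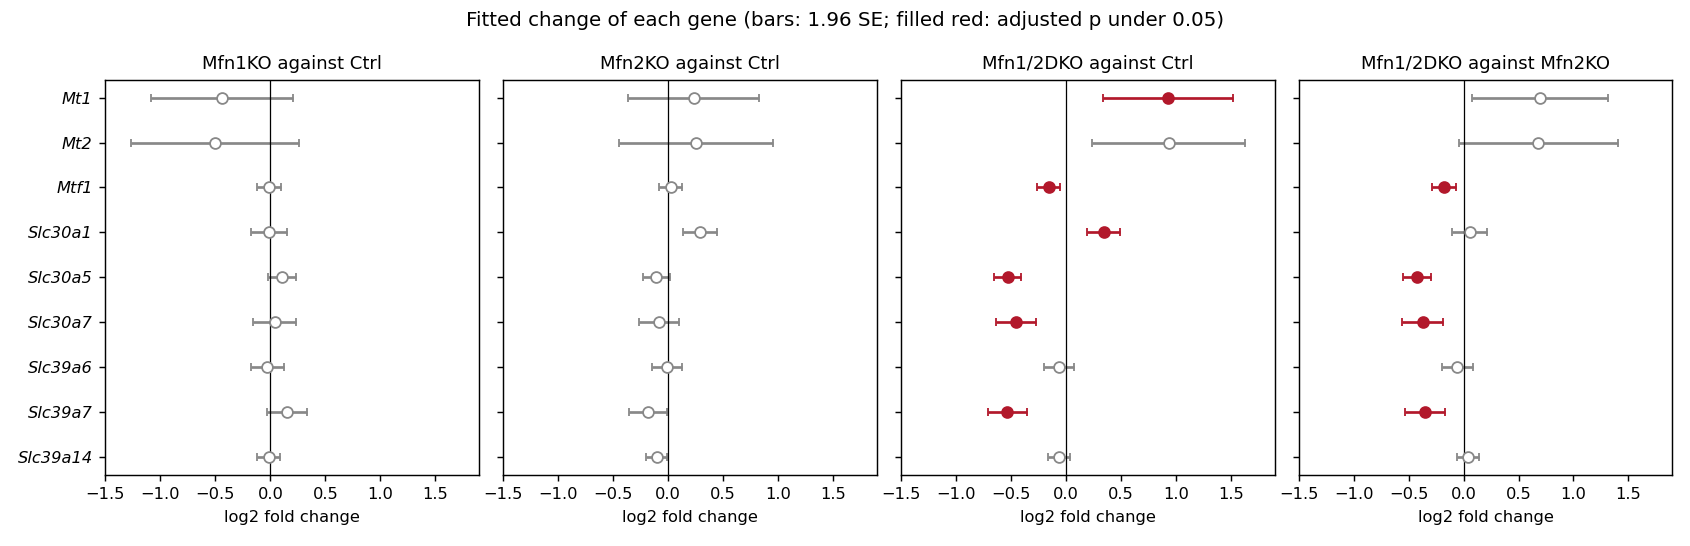
Fitted log2 fold change (horizontal axis) of each of the 9 genes in 4 comparisons, with bars of the 95% interval and filled red points where the adjusted p was under 0.05. The red points are 6 for Mfn1/2DKO against Ctrl, 4 for Mfn1/2DKO against Mfn2KO, and none for either single knockout.

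The rest of the zinc system was taken from a list of 20 further metallothionein, SLC30 and SLC39 genes, of which 19 were in the table. Of these 19, 7 passed between β-Mfn1/2DKO and Ctrl, 3 higher and 4 lower, with a median change of 0.02. That was 36.8% of the list, where 16.5% of all genes and 33.6% of those averaging 100 normalized counts or more passed. Slc30a8, the granule transporter, was 16345 to 22565 in β-Mfn1/2DKO against 24142 to 29881 in Ctrl. It fell by 0.38 on the log2 scale (0.769-fold, edgeR adjusted p = 0.00799). It also differed from β-Mfn2KO (-0.49, edgeR adjusted p = 0.00179), with an interaction of -0.50 (adjusted p = 0.0396). That interaction passed in only 7 of the 20 fits that left out 1 library. With depth over 40 M as a term the interaction was -0.32 and the change from Ctrl -0.09. Among libraries over 40 M counts alone, the change from β-Mfn2KO was -0.27. The 2 lowest values of Slc30a8 were in replicates 4 and 5 of β-Mfn1/2DKO, and without them the difference from Ctrl was -0.23 (adjusted p = 0.14). All β-cell markers were lower in these islets as well, and their part in the result was not tested. Of these markers Ins1, the locus of Cre, was also lower in β-Mfn1KO than in Ctrl (-0.82 ± 0.14, edgeR adjusted p = 0.0324).

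Slc39a9 and Slc39a13, both Golgi zinc transporters, were lower in all 5 β-Mfn1/2DKO libraries than in the other 15, at 3681 to 3963 and 1065 to 1093 normalized counts. Slc39a9 fell by 0.33 and Slc39a13 by 0.28 on the log2 scale against Ctrl (edgeR adjusted p = 0.00249 and 0.000374). Each shares exon bases with a gene on the other strand, Erh for Slc39a9 and Psmc3 for Slc39a13, which had 74.6% and 334% as many counts. Groups of β-Mfn1/2DKO and Ctrl did not overlap for 3 of the 9 genes (Mtf1, Slc30a5 and Slc39a7), as for 10.6% of all genes.

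Slc39a11 (0.38 ± 0.10) and Slc39a3 (0.17 ± 0.05) were higher in β-Mfn1/2DKO than in Ctrl. Mt3, the metallothionein best known from brain, was at 33.8 to 50.7 normalized counts in β-Mfn1/2DKO and 58.1 to 98.2 in Ctrl. It fell by 0.77 on the log2 scale (edgeR adjusted p = 0.0318), opposite to the direction of Mt1 and Mt2. With depth over 40 M as a term its difference was -1.74 (adjusted p = 0.0112), but in counts drawn down to the smallest total it was -0.22. The call held in 15 of the 20 fits that left out 1 library.

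Slc30a2 was higher in β-Mfn1/2DKO (3.62 ± 1.15, edgeR adjusted p = 0.0324), with its high values in the libraries rich in acinar markers. It held 79.2 and 176 normalized counts in replicates 4 and 5, 3.88 to 6.46 in the other 3 and 0 to 14.0 in Ctrl, and the difference without the pair was 0.33 (adjusted p = 0.896). Slc39a5 followed the same libraries, at 170 and 506 against 2.47 to 11.1, and did not pass. The other abundant zinc genes gave no call, at 0.10 ± 0.07 for Slc30a4, -0.24 ± 0.09 for Slc30a6, -0.05 ± 0.05 for Slc30a9, 0.02 ± 0.05 for Slc39a1 and -0.45 ± 0.16 for Slc39a10. Slc30a3, Slc30a10 and Slc39a12 averaged under 2 normalized counts in every genotype, too few for a fold change.

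**Figure D5:**
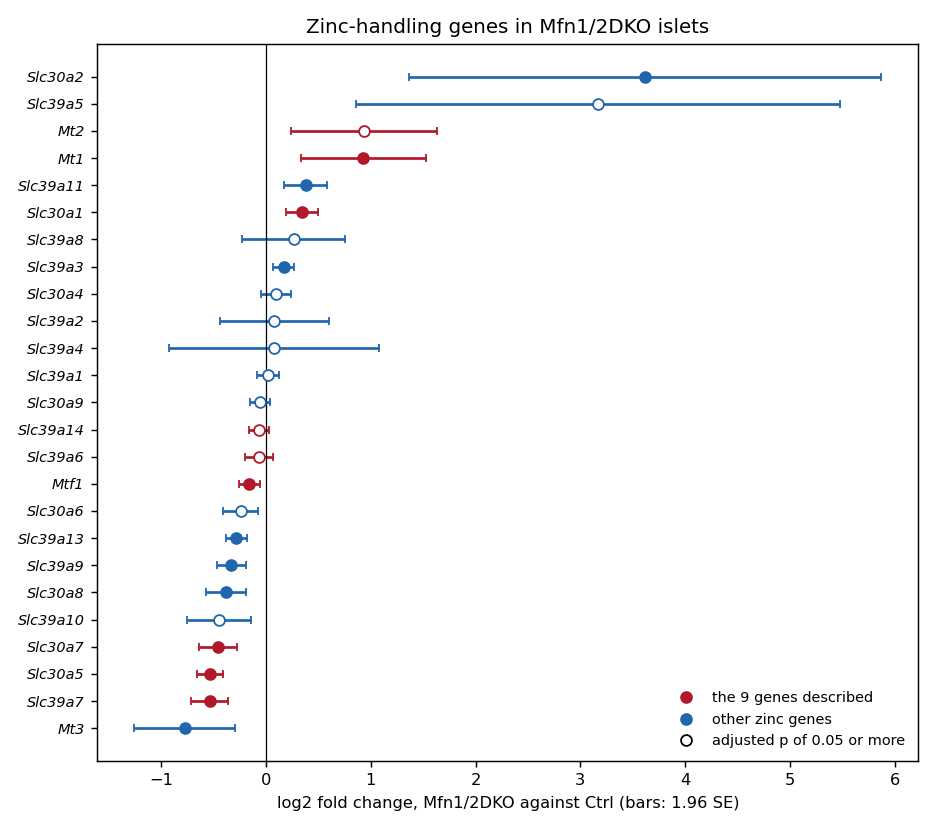
Fitted log2 fold change between Mfn1/2DKO and Ctrl islets (horizontal axis) of 25 zinc genes, ordered by value, with bars of the 95% interval, open points where the adjusted p was 0.05 or more and red for the 9 genes described. Slc30a2 at 3.62 and Slc39a5 at 3.17 have the widest bars, and Mt3 at -0.77 is the lowest.

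Metallothioneins also bind copper and carry glucocorticoid response elements, and these lists were read beside them. Of 8 copper-handling genes, 2 passed between β-Mfn1/2DKO and Ctrl, both lower. They were the copper-exporting ATPase Atp7a (-0.66 ± 0.12) and the mitochondrial copper chaperone Cox17 (-0.39 ± 0.11). Of 6 glucocorticoid targets, 3 passed, with Fkbp5 (0.59 ± 0.07) and Klf9 (0.21 ± 0.06) higher and Per1 (-0.37 ± 0.12) lower. The background in this comparison was 16.5% of all genes, and 33.6% of those averaging 100 normalized counts or more. All 5 endothelial markers were higher, with a summed count of 6876 to 10835 against 4743 to 7129 in Ctrl, and 1 of 6 macrophage markers was lower. Their part in the results was not tested.

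Within genotypes several of the 9 genes varied together. Likeness was measured as the Pearson correlation of deviations of log2 CPM (counts scaled to library size) from the genotype mean, over the 20 libraries. For Mt1 it was 0.99 with Mt2, -0.87 with Slc39a7, -0.84 with Slc30a5 and -0.83 with Mtf1, while Slc39a7 and Mtf1 stood at 0.90. Libraries with more metallothionein mRNA than their genotype thus held less Slc39a7 and Slc30a5, as Ctrl replicate 6 did with the highest Mt1 and the lowest Slc39a7 (12991) and Slc30a5 (4175) of its group. Without the 2 macrophage-rich libraries the 3 negative values were -0.77 for Slc39a7, -0.74 for Slc30a5 and -0.73 for Mtf1, and Mt1 with Mt2 stood at 0.98. Such a correlation is a description, since the points share library, depth and composition.

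Among these 12274 more abundant genes the 5 most like Mt1 were Mt2 (0.99), Smim27 (0.95), Cln3 (0.87), Fbxw17 (0.86) and Decr1 (0.86). Without the 2 macrophage-rich libraries Smim27 stood at 0.94, Decr1 at 0.82 and Cln3 at 0.77. The 5 most like Mt2 were Mt1, Smim27 (0.94), Cln3 (0.85), Fbxw17 (0.85) and Serhl (0.85). For Slc30a1 they were Hps3 (0.89), Negr1 (0.88), Ckb (0.87), Samd1 (0.87) and Rab19 (0.86), none of them shared with the metallothioneins.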

How the data were processed

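The authors aligned paired-end reads with STAR 2.6.1b and estimated counts per gene with RSEM 1.3.1, and their processing notes also name cutadapt 2.3 and FastQC 0.11.8. The deposited table holds these expected counts as whole numbers. The strand setting was not given in the sources used here. A deposited table of normalized values was not used. Expected counts entered as deposited, as rounding changed none. Genes with a count in any library (28632) entered 1 edgeR 4.0.16 quasi-likelihood fit with TMM scaling and 4 genotype means (R 4.3.3), with Benjamini-Hochberg adjustment over all genes, and the steps were tested on simulated data. Alternatives were DESeq2 1.42.0, other scaling, filtering, samples and covariates. The 9 genes are all named. The members and lists were chosen with earlier results of these data known. Gene positions are GRCm38. Precision rests on library totals of 12.4 to 122.9 M counts and on 4 to 6 libraries a genotype.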

Additional observations from a re-analysis of the deposited data

Results flagged for a closer look

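The change that went with loss of Mfn1 differed between islets with and without Mfn2 for 2 of the 9 genes, by the interaction term of the edgeR fit. It was -0.52 for Slc30a5 (SE 0.09, adjusted p = 0.00144) and -0.50 for Slc39a7 (SE 0.13, adjusted p = 0.0245). The interaction passed for 5.92% of all genes and for 12.8% of those averaging 100 normalized counts or more. The call on Slc30a5 held in all 20 fits that left out 1 library, and that on Slc39a7 in 17 of them. With depth as a term the interaction still passed for Slc30a5 but not for Slc39a7 (edgeR adjusted p = 0.199). All 5 β-Mfn1/2DKO libraries were below the other 15 for both genes, as was the case for 2.35% of all genes. Among 36 sets of libraries, 1 for each gene and genotype, a screen for a library far from the others of its genotype singled out none. With so few libraries a genotype, such a screen can miss an atypical one. It read only the 9 genes and not the macrophage and acinar markers, by which some libraries stood apart.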

How the results depend on the processing

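Of the 9 genes, 6 passed between β-Mfn1/2DKO and Ctrl. The calls on Slc30a1, Slc30a5, Slc30a7 and Slc39a7 there held without any 1 library. With depth over 40 M as a term, 0 of 9 passed in that comparison, 1 against β-Mfn2KO, 1 against β-Mfn1KO, 1 in the interaction and 1 of 19 further zinc genes, where the term rests on 2 β-Mfn2KO libraries. Drawing counts down to the smallest total left 4 of the further zinc genes. Requiring a fold over 1.5 left 1 of 9 against Ctrl, 0 against β-Mfn2KO, 0 in the interaction and 2 further zinc genes, since fewer genes can meet both rules. Against β-Mfn2KO, total-count scaling left 2, libraries over 40 M counts alone 1, and leaving out replicates 4 and 5 of β-Mfn1/2DKO 2. In the interaction, total-count scaling left 1 and leaving out that pair 1, and leaving out any 1 library gave 1 to 3. That pair left out, 4 of the further zinc genes passed against Ctrl. For these other fits the share of all genes passing is not given here, so their counts have no background beside them. Other causes were not tested. Leaving out the 2 macrophage-rich libraries was chosen after seeing the data.

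Replicate numbers were shared across genotypes. Same-numbered libraries deviated more alike than others, with a mean correlation of 0.246 over 27 pairs (21 above 0.1) against -0.054 over 122 other pairs (36 above 0.1). Their minimum was -0.10 and nothing in the labels ties a number to a litter or day, so the numbers were not taken as pairing. The numbers did follow sex, as replicates 1 and 2 were all female and replicates 4 to 6 all male. The part of sex or of a shared batch in this likeness was not tested. With the replicate block 7 of 9 passed against Ctrl and 6 against β-Mfn2KO, with Mt1 at 1.3 and 0.80. The share of all genes passing in that fit is not given here.

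Signs turned mostly near 0, except for Mt1 and Mt2, whose differences in the main fit were far larger. The call on Mt1 in β-Mfn1/2DKO against Ctrl was lost where its sign turned. With depth as a term, Mt1 was -0.089 and Mt2 -0.23 against Ctrl in β-Mfn1/2DKO, and -0.26 and -0.34 in β-Mfn2KO. Slc39a6 was then 0.023 and 0.028 in these, 0.050 against β-Mfn1KO and 0.023 in the interaction. Total-count scaling, which moved the median of all genes by 0.14 in β-Mfn1/2DKO against Ctrl, gave 0.075 for Slc39a6 and 0.075 for Slc39a14 there. It gave 0.022 for Slc39a6 in β-Mfn2KO, 0.053 against β-Mfn2KO and 0.10 in the interaction, and against β-Mfn1KO 0.13 for Slc39a6, 0.12 for Slc39a14 and 0.020 for Mtf1. In β-Mfn1KO against Ctrl the replicate block gave 0.026 for Mt1, 0.012 for Mt2, 0.031 for Slc30a1 and -0.047 for Slc30a7, sex as covariate 0.018 for Slc30a1 and -0.00079 for Slc30a7, drawn-down counts 0.013 for Slc39a14, and leaving out the macrophage-rich pair 0.032 for Slc30a1 and -0.027 for Slc30a7. In β-Mfn2KO against Ctrl, Mtf1 was -0.0023 with the replicate block and -0.048 in drawn-down counts, and Slc39a6 0.0085 with sex. Slc39a6 was 0.043 against β-Mfn2KO in libraries over 40 M counts. Against β-Mfn1KO it was 0.0043 with sex, 0.0014 with the acinar score and 0.0059 without replicates 4 and 5 of β-Mfn1/2DKO. Its interaction was 0.020 with the block, 0.0035 with the acinar score and 0.0099 without that pair.

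Leaving out 1 library at a time also turned signs. In β-Mfn1KO against Ctrl the range was -0.036 to 0.013 for Mtf1, -0.080 to 0.035 for Slc30a1, -0.027 to 0.11 for Slc30a7, -0.087 to 0.021 for Slc39a6 and -0.053 to 0.00012 for Slc39a14. In β-Mfn2KO against Ctrl it was -0.062 to 0.64 for Mt2, -0.0079 to 0.066 for Mtf1 and -0.057 to 0.041 for Slc39a6. For Slc39a6 it was -0.072 to 0.022 against β-Mfn1KO and -0.078 to 0.030 in the interaction.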
